A study of Homo sapiens with 33 samples.

Results

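The 10 genes described here encode major proteins that the liver secretes into blood plasma: the carriers ALB, TTR, TF, RBP4, HP and AHSG, the protease inhibitors SERPINA1 and AMBP, the adhesion protein VTN and the immunoglobulin-family protein A1BG. They were chosen by name, with earlier results of these data known, and matched by symbol to 10 of the 78932 gene identifiers in the expression files. The study measured RNA and replication timing in HepG2, an established human hepatocellular carcinoma cell line that keeps much of the hepatocyte's secretory programme. RNA was read in 12 libraries of cells that had been sorted into cell-cycle fractions (G1, S1, S2, S3, S4 and G2, each with replicates 3 and 2) and in 3 bulk libraries (replicates 1 to 3). All the cells were HepG2, with no genotype or drug treatment named in the labels. The sorted libraries were made with a SMARTer Stranded Total RNA kit for ultra-low input and the bulk libraries from unsorted cells with a TruSeq Stranded mRNA kit, and nuclear RNA is the labelled molecule throughout. Sorting, kit and input therefore cannot be told apart in any comparison of sorted with bulk libraries. Replication timing itself, in the other 18 samples, was not analysed here.

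Hepatocytes make these proteins on the rough endoplasmic reticulum and release them continuously, so their mRNAs are among the most abundant in liver. Liver-enriched transcription factors of the HNF1, HNF4 and C/EBP families drive many of their promoters. Several respond to inflammation in liver: HP and SERPINA1 are positive acute-phase genes, whereas ALB, TTR, TF, RBP4 and AHSG are negative ones.

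Values are in TPM (transcripts per 1000000, a level corrected for gene length). The share of TPM in protein-coding genes was 12.8% ± 1.504 in sorted libraries (SD, n = 12) and 77.1% ± 0.434 in bulk ones (SD, n = 3). Levels are therefore also given after the protein-coding genes of each library were rescaled to a sum of 1000000, called protein-coding TPM below. Sorted libraries held 6115951 to 18451678 whole reads, worked out from steps in the values, and bulk libraries held 22332578 to 24413666. S4 replicate 3 was the deepest sorted library. The share of TPM from mitochondrial genes had a lowest value of 2.22%, a median of 3.88% and a highest of 9.97% in the 6 sorted libraries of replicate 3, against 8.66%, 11.8% and 16.7% in those of replicate 2, and was 17.2% to 18.2% in bulk. Since separate cultures are not named in the labels, every p-value measures the spread between libraries alone, which may be technical. In such pooled samples fewer cells of a type and less RNA per cell cannot be told apart.

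Hepatocyte markers outside the 10 genes were present, with 9 of 10 at a mean of at least 1 protein-coding TPM in bulk. APOB, the apolipoprotein of very-low-density lipoprotein, was the exception at 0.0469 to 0.159 protein-coding TPM in bulk. The markers PTPRC and CD3E of leukocytes, HBB of red cells, KDR and TEK of endothelium and COL1A2, COL3A1, DCN and LUM of fibroblasts were at 0 in the 3 bulk libraries. The summed leukocyte list was 1204 to 1750.4 protein-coding TPM in replicate 3 and 2591 to 3344 in replicate 2, against 2345 to 2566 in bulk, and almost all of it was LYZ, which encodes lysozyme.

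RefSeq promoter windows (GRCh38.p14, 300 bases around an annotated start, most of them upstream) were at hand for 8 of the 10 genes, all but TTR and HP. GTTAAT, the half-site letters of the palindrome that HNF1 factors bind, was searched on both strands, reading ATTAAC on the opposite one. It was present in windows of 2 of the 8 genes, ALB and SERPINA1, and in 6.88% of all 35116 promoter windows. Those windows are shown, 5′ to 3′ on the gene's strand, because the match lies just upstream of the start in both of them, with its first base at -61 in ALB and at -76 in SERPINA1. The ALB window is chr4:73404037-73404336 on the plus strand, and the SERPINA1 window is chr14:94388553-94388852 on the minus strand, from the downstream of its 2 annotated starts in the table. Capitals mark GTTAAT.
ALB: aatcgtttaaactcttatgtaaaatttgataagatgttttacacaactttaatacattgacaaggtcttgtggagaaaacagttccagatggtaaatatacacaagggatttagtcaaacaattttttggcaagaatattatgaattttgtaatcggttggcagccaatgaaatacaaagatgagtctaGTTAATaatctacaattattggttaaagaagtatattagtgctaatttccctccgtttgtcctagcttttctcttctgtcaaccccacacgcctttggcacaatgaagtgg
SERPINA1: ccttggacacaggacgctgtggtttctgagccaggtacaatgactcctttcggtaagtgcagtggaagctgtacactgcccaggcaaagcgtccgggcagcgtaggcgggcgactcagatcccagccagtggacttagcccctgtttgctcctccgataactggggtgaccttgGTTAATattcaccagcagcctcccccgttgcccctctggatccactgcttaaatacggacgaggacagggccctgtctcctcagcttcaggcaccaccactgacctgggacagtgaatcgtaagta
Other promoter motifs were searched in the same way. CCAAT, with ATTGG as its opposite strand, was in windows of 5 of the 8 genes (ALB, AMBP, RBP4, TF and VTN) and in 34.6% of all windows. TATAAA, with TTTATA as its opposite strand, was in that of RBP4 alone and in 11.5% of all windows. GGGCGG, with CCGCCC as its opposite strand, was in windows of 5 of the 8 (A1BG, AMBP, RBP4, SERPINA1 and TF) and in 45.0% of all windows. These are matches of letters and not measured binding. The counts out of 8 are per gene, with a gene counted if any of its windows matched, whereas the shares are per window. The units are thus unlike, and a gene with more windows has more chances of a match.

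ALB encodes albumin, the main carrier of fatty acids, bilirubin and drugs in plasma, and lies at chr4:73404287-73421482 (GRCh38, as are all gene positions below). In bulk it had the highest level of the 10, at 14831, 14868 and 14791 TPM in replicates 1, 2 and 3. In the sorted libraries its lowest, median and highest levels were 1500, 1937 and 2732 TPM in replicate 3 and 3253, 4157 and 4887 TPM in replicate 2. The highest level of replicate 3 thus lay below the lowest of replicate 2, and every sorted library lay below bulk on this scale. In protein-coding TPM the order was different, with 11152, 14875 and 24467 in replicate 3 and 28239, 31529 and 38563 in replicate 2, against 19120 to 19384 in bulk. On that scale every library of replicate 2 was above bulk, and every library of replicate 3 but S1 was below it.

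The 10 genes together took 1.98% to 3.86% of the protein-coding TPM in the 6 sorted libraries of replicate 3 and 4.77% to 6.49% in those of replicate 2, against 3.79% to 3.87% in bulk. ALB alone made up 1.91% to 1.94% of the protein-coding TPM in bulk.

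Below ALB, the order of bulk levels in TPM was AHSG, AMBP, RBP4 with SERPINA1, TF, TTR, VTN, HP and A1BG. AHSG (fetuin-A, which carries calcium phosphate in plasma and blocks its precipitation, chr3:186613060-186621318) had 8048, 7735 and 8231 TPM in bulk. AMBP (the precursor of alpha-1-microglobulin and of the trypsin inhibitor bikunin, chr9:114060127-114078300) had 2811, 2709 and 2922 TPM. RBP4 (the retinol carrier, chr10:93591694-93601744) had 1286, 1172 and 1281 TPM, and SERPINA1 (alpha-1-antitrypsin, the main inhibitor of neutrophil elastase, chr14:94376747-94390635) had 1079, 1193 and 1177 TPM. The ranges of RBP4 and SERPINA1 overlapped, so no order can be given between them, whereas no other neighbours in this order overlapped. TF (transferrin, the iron carrier, chr3:133661998-133796641) followed at 710.8 to 721 TPM, TTR (transthyretin, which carries thyroxine and the RBP4 complex, chr18:31591877-31598821) at 449 to 478 TPM and VTN (vitronectin, chr17:28367284-28370307) at 221 to 223 TPM. HP (haptoglobin, which binds free haemoglobin, chr16:72054505-72061055) had only 14.9 to 16.2 TPM, and A1BG (alpha-1-B glycoprotein, chr19:58345183-58353492) 0.226 to 0.358 TPM.

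The depth behind these levels differed between genes. TF had 104021 to 112503 recovered reads per bulk library and AHSG 94981 to 108408, although the level of AHSG was far higher. The length that the values imply, by which TPM divides, is 26038 bases for TF and 2216 bases for AHSG. AMBP, above TF in the order of TPM, had only 28476 to 32409 reads per bulk library. The place of TF in that order thus rests on its implied length. Whether the implied lengths match the mRNAs of these cells was not tested. HP rested on 454 to 542 reads per bulk library and on 207 to 1527 per sorted library. A1BG rested on 5 to 8 reads per bulk library and on 15 to 67 per sorted library, the least of the 10, so its bulk level is the least certain. Some of the loci share sequence or position with other genes. HPR, a near copy of HP, held 46 to 266 reads per sorted library and 207 to 276 per bulk library, and reads may be divided between the pair. A1BG overlaps the antisense gene A1BG-AS1, which held 1 to 15 reads per sorted and 0 to 2 per bulk library. TF overlaps SRPRB and ACSL3P1, and the sources used here do not say whether counting used strand.

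**Figure D1:**
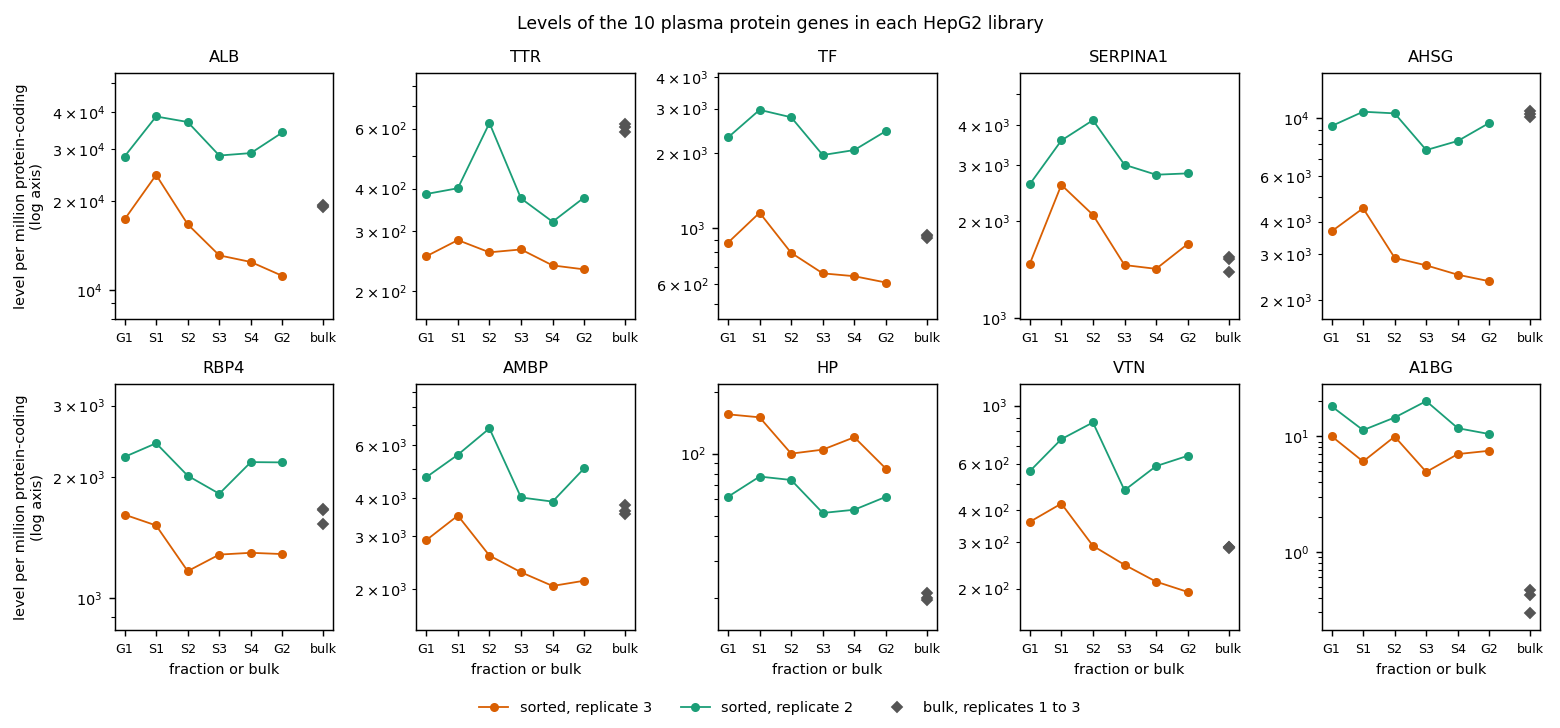
Level of each of the 10 genes in protein-coding TPM (log axis, with its own range in each panel) by sorted fraction and in bulk. Lines join the sorted libraries of replicate 3 (orange) and replicate 2 (green), and grey diamonds are the 3 bulk libraries. Replicate 3 lies below replicate 2 in every fraction for all genes but HP, where it lies above, and the bulk diamonds of HP and A1BG lie below all 12 sorted libraries.

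The first question was whether the mRNAs of these proteins change through the cell cycle. None of the 10 genes passed the test in any comparison among the fractions when fitted without a term for the replicate number. Under limma's F test for any difference among the 6 fractions, with Benjamini-Hochberg adjustment over 17022 genes, 0 of the 10 were called at an adjusted p under 0.05, against 0.0176% of all genes. The lowest unadjusted p among the 10 was 0.813 (limma F test, 2 libraries per fraction), and limma's voom on the recovered reads also called 0. With the replicate number as a block, limma called 0 in TPM, against 3 of all 17022 genes. There ALB, TF, AHSG, AMBP and VTN had an unadjusted p of 0.0238 to 0.0490 by limma. Voom on the recovered reads with that block called 2, TF (adjusted p 0.0141) and SERPINA1 (adjusted p 0.0139), against 525 of all 17022 genes. Over all genes 470 had an unadjusted p under 0.05 in the main fit, 1202 with the block in TPM and 2949 with the block and voom.

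In G2 against G1, ALB had 1722 and 3935 TPM in G2 (replicates 3 and 2) and 2186 and 4378 TPM in G1. The libraries of G2 and G1 overlapped for ALB, and within each replicate number G2 was the lower. The log2 difference of ALB was -0.25 ± 0.66 (SE). The standard errors of the 10 genes reached 0.93 for TF, so a change of 1 log2 unit in that gene would have been close to its error in this fit. The fit has no replicate term, so these errors hold the shift between the replicate numbers. Within replicates 3 and 2 the log2 difference of TF was -0.24 and -0.34. With the replicate number as a block limma called 0 of the 10, against 1 of all 17022 genes, with a lowest unadjusted p of 0.0651. SERPINA1 had 263 and 326 TPM in G2, against 186 and 405 TPM in G1, and was the only gene of the 10 with an estimate above 0, at 0.09. The lowest estimate was that of HP at -0.47. Of the 10 genes 0 were called by limma, against 0.00587% of all genes, with a lowest unadjusted p of 0.371. The median over the 10 was -0.27 and that over all genes -0.08.

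For the mean of the S fractions against G1, the estimates ran between -0.39 for RBP4 and 0.14 for SERPINA1, with a median of -0.25 over the 10 and of -0.20 over all genes. Limma called 0 of the 10, against 0.0% of all genes, and the lowest unadjusted p was 0.286. This comparison shares the G1 libraries with the one before it. Over S1 to S4 the slope per fraction ran between -0.23 for VTN and 0.02 for A1BG, with a median of -0.20 over the 10 and of 0.04 over all genes. Again 0 of the 10 were called by limma, against 0.0% of all genes, with a lowest unadjusted p of 0.254. With the replicate number as a block, limma still called 0 for the slope in TPM, with a lowest unadjusted p of 0.00287. In fits added after the data had been seen, that block called 2 genes on the protein-coding scale (TF and SERPINA1). Over all 13492 genes tested it called 249 there, 81 of them lower in later S fractions. With voom on the recovered reads it called 6 (ALB, TF, SERPINA1, AHSG, AMBP and VTN), against 865 of all 17022 genes, 193 of them lower. All the genes of the 10 called in these fits were lower in later S fractions.

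The slopes of the 10 genes had mostly the same sign in both replicate numbers. In protein-coding TPM the slope over S1 to S4 was below 0 for 10 of the 10 genes in replicate 3, with a median of -0.26 log2 units per fraction, and for 9 of the 10 in replicate 2, with a median of -0.17. On the TPM scale 8 of the 10 were below 0 in replicate 3 and 9 of the 10 in replicate 2. SERPINA1 shows the pattern, with 2599.55, 2097, 1464 and 1424 protein-coding TPM in S1, S2, S3 and S4 of replicate 3 and 3573, 4133, 3003 and 2796 in replicate 2. S3 and S4 lay below S1 and S2 in both. The sign of G2 against G1 depended on the scale. In protein-coding TPM 1 of the 10 genes was above 0 in replicate 3 and 6 of the 10 in replicate 2, whereas on the TPM scale 8 of the 10 were below 0 in replicate 3 and 10 of the 10 in replicate 2. VTN, which anchors cells to matrix and stabilises the inhibitor PAI-1, had 194 protein-coding TPM in G2 and 359 in G1 of replicate 3, against 643 in G2 and 561 in G1 of replicate 2. On that scale the direction for VTN was opposite in the replicate numbers, whereas in TPM G2 was the lower in both, with log2 differences of -0.58 in replicate 3 and -0.23 in replicate 2. The values within a single replicate number rest on 1 library per fraction and were not tested. The share of all genes below 0 within a replicate number was not worked out, so these signs are not shown to be particular to the 10.

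In the main fits of the sorted libraries, called differences of the 10 genes lay only between the replicate numbers, which share all 6 fractions. In the limma fit with fraction as a block, 9 of the 10 genes were called, against 25.0% of all genes in either direction: 8 were lower in replicate 3, against 6.99% of all genes, and 1, HP, was higher, against 18.0% of all genes. The median log2 difference was -0.87 over the 10 and 0.16 over all 17022 genes. The comparison describes these libraries, since the labels say nothing on how the replicates differ.

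TF differed the most, with a lowest, median and highest level of 75.7, 98.3 and 129 TPM in replicate 3 and of 229.9, 314 and 366 TPM in replicate 2. AHSG followed with 311, 369 and 503 TPM in replicate 3 and 918, 1176 and 1449 TPM in replicate 2. For both genes the highest library of replicate 3 lay well below the lowest of replicate 2, and replicate 3 was lower in 6 of 6 fractions. The log2 difference by limma was -1.60 ± 0.10 for TF and -1.59 ± 0.10 for AHSG (SE), each with a Benjamini-Hochberg adjusted p of 6.94e-05.

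VTN had 28.2, 33.8 and 47.2 TPM in replicate 3, against 61.6, 80.6 and 114 TPM in replicate 2, a log2 difference of -1.15 ± 0.12 (SE). ALB, whose levels are given above, differed by -1.06 ± 0.10, with an adjusted p of 0.000466 by limma. AMBP had 261, 331 and 391 TPM in replicate 3, against 437, 615 and 899 TPM in replicate 2, a difference of -0.93 ± 0.12. In these 3 genes, too, the libraries of the replicate numbers did not overlap. SERPINA1 and RBP4 differed by -0.81 ± 0.14 and -0.63 ± 0.10.

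TTR had 30.4, 32.1 and 35.8 TPM in replicate 3, against 35.8, 47.7 and 82.4 TPM in replicate 2. The groups all but met, at 35.75 TPM in G2 of replicate 3 and 35.84 TPM in S4 of replicate 2. Its difference of -0.63 ± 0.15 had an adjusted p of 0.0192 by limma, and the call was lost without S2 replicate 2 (adjusted p 0.0543), without S2 replicate 3 (0.0539) and without the filter on low genes (0.0724). A1BG overlapped between the numbers on the TPM scale, with 0.563, 1.05 and 1.28 TPM in replicate 3 and 1.21, 1.62 and 2.82 TPM in replicate 2. Its difference of -0.51 ± 0.20 was not called by limma (adjusted p 0.0953), although in protein-coding TPM it was -0.84 with an adjusted p of 0.00494.

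HP went the other way. It had 11.98, 14.7 and 19.6 TPM in replicate 3, against 5.99, 8.08 and 9.85 TPM in replicate 2, and every library of replicate 3 was above every library of replicate 2. The log2 difference was 0.83 ± 0.13 (SE; adjusted p 0.00405 by limma), higher in 6 of 6 fractions. On the TPM scale the 2 groups of 6 libraries did not overlap for 9 genes, 8 of them lower in replicate 3, against 3.85% of all genes, and 1 higher, against 7.14%. In protein-coding TPM all 10 were called by limma, against 46.0% of all 13492 genes tested, with 9 lower, against 12.3%, and HP higher, against 33.7%. On that scale the groups did not overlap for any of the 10, with 9 lower, against 5.91% of all genes, and HP higher, against 15.8%.

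**Figure D2:**
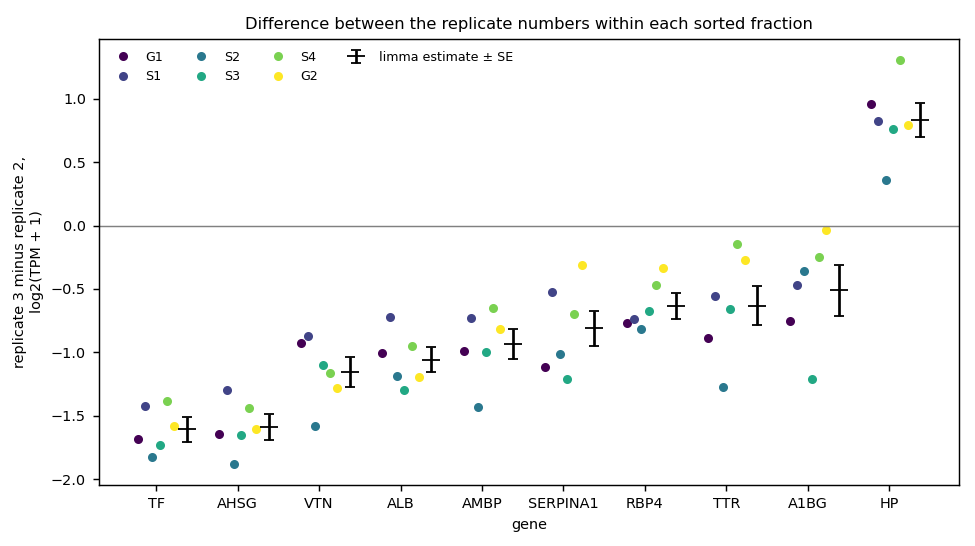
Log2(TPM + 1) in replicate 3 minus replicate 2 for each gene, with 1 coloured point per sorted fraction and, in black, the limma estimate with its standard error. All 6 points lie below 0 for 9 genes and above 0 for HP, and TF and AHSG lie lowest.

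Other measures moved with the replicate number. The summed hepatocyte markers outside the 10 were 19762 to 31873 protein-coding TPM in replicate 3 and 34908 to 46618 in replicate 2, against 32835 to 33344 in bulk. The share of mitochondrial TPM, given above, was lower at the median in replicate 3. The fibroblast list, almost wholly PDGFRB, summed to 10.6 to 16.6 protein-coding TPM in replicate 3 and 18.6 to 35.2 in replicate 2, and the endothelial list to 7.20 to 17.3 and 12.1 to 24.7. What part these had in the difference of the 10 genes was not tested.

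Of a list of 37 other plasma proteins of the liver, 27 were tested in the sorted libraries, of which 0 were called by limma in each comparison among the fractions. Their estimates, too, were mostly below 0: 26 of the 27 for the slope over S1 to S4, 25 in G2 against G1 and 24 in S against G1. Between the replicate numbers limma called 16 of the 27 lower in replicate 3, against 6.99% of all genes, and 4 higher, against 18.0%. The median over the 27 was -0.49, against 0.16 over all genes. The largest differences were -2.18 for ITIH3, a hyaluronan-binding heavy chain that is joined to bikunin, -2.01 for CP, the copper carrier ceruloplasmin, 1.45 for SAA4, a serum amyloid A protein, and -1.29 for SERPIND1, the thrombin inhibitor heparin cofactor II. SAA4 rested on only 0 to 34 reads per sorted library. The 4 of this list with the highest bulk levels were AFP, APOH, A2M and ITIH2, and all of them were lower in replicate 3, with log2 differences of -1.02, -0.58, -0.90 and -1.12.

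The levels of 8 of the genes, all but HP and A1BG, followed each other across the 12 sorted libraries. Pearson's r of log2 protein-coding TPM (n = 12 libraries) ran between 0.75 and 1.00 over the 28 pairs, with a median of 0.928. These libraries share fractions and replicate numbers, and within the 6 libraries of 1 number the median was 0.796 in replicate 3 and 0.796 in replicate 2. The lowest r within a number was 0.055 in replicate 3 and -0.20 in replicate 2, so not all of the 8 followed each other there. HP had an r of -0.71 to -0.52 with the other 9 genes across the 12 libraries, but within a replicate number its median r with them was 0.740 in replicate 3 and 0.890 in replicate 2. The negative values of HP thus stood between the replicate numbers for all of these genes but A1BG. With A1BG the r of HP was 0.090 within replicate 3 and -0.36 within replicate 2. Of 10799 other protein-coding genes, those most like the mean of the 10 across the 12 libraries were ITIH2 (r = 0.993), GPC3 (0.992), FN1 (0.991), C3 (0.989) and IGSF1 (0.986). GPC3 encodes the cell-surface proteoglycan glypican-3, FN1 fibronectin and C3 the central complement component.

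The last comparison set the sorted libraries against bulk. In protein-coding TPM 3 of the 10 genes were called by limma, against 71.6% of all genes in either direction: HP and A1BG were higher in the sorted libraries, against 55.1% of the 13041 genes tested, and TTR was lower, against 16.5% of all genes. The all-gene median was 0.79 and that of the 10 genes 0.37, so being higher was the common direction and the 10 genes were below it at the median.

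HP had 51.5, 80.9 and 155 protein-coding TPM as lowest, median and highest in the sorted libraries, against 20.9, 19.45 and 19.96 in bulk replicates 1, 2 and 3. All 12 sorted libraries were above bulk, and the log2 difference was 2.03 ± 0.32 (SE; adjusted p 0.000143 by limma). A1BG had 4.91, 10.2 and 20.2 protein-coding TPM in the sorted libraries, against 0.424, 0.294 and 0.464 in bulk. Its groups were also apart, with a log2(value + 1) difference of 3.01 ± 0.35 (SE; adjusted p 1.14e-05 by limma), which understates the ratio of mean levels of 27.9 since the bulk values lie below the pseudocount. These 2 genes were the only ones of the 10 above bulk in all sorted libraries, against 46.5% of all genes, and none of the 10 was below bulk in all of them, against 14.6%.

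TTR had 232, 301 and 623 protein-coding TPM in the sorted libraries, against 608, 585 and 619 in bulk. All sorted libraries but S2 replicate 2 were below bulk, and the difference was -0.91 ± 0.25 (SE; adjusted p 0.00644 by limma). AHSG had an estimate of similar size, -0.97 ± 0.56, that was not called (adjusted p 0.135 by limma). Its 12 sorted libraries split by replicate number, with 2357 to 4506 protein-coding TPM in replicate 3 and 7553 to 10614 in replicate 2, against 10085 to 10668.5 in bulk. The other estimates, none called by limma, were 0.65 ± 0.30 for SERPINA1 (adjusted p 0.0722), 0.55 ± 0.55 for TF, 0.54 ± 0.42 for VTN, 0.21 ± 0.42 for ALB, 0.07 ± 0.24 for RBP4 and -0.05 ± 0.35 for AMBP. SERPINA1 passed without S2, S3 or S4 of replicate 3, with adjusted p of 0.0418, 0.0392 and 0.0424 by limma.

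The sign of most of these estimates differed between scales. In the deposited TPM 9 genes were called by limma, against 80.9% of all genes, 8 of them lower in the sorted libraries, against 57.8% of all genes, and A1BG higher by 0.85, against 23.1%, while HP was at -0.47 and not called. On that scale 8 genes were below bulk in all sorted libraries, against 54.3% of all genes, and A1BG was above it in all, against 15.3%. The all-gene median was -0.99 on that scale and 0.11 after median-ratio scaling of the protein-coding genes. The endothelial list summed to 7.20 to 24.7 protein-coding TPM in the sorted libraries, against 0.755 to 1.16 in bulk, and its part in these differences was not tested. Relative to the all-gene median the picture was the same on these 3 scales: HP and A1BG lay above it and the other 8 genes below it.

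**Figure D3:**
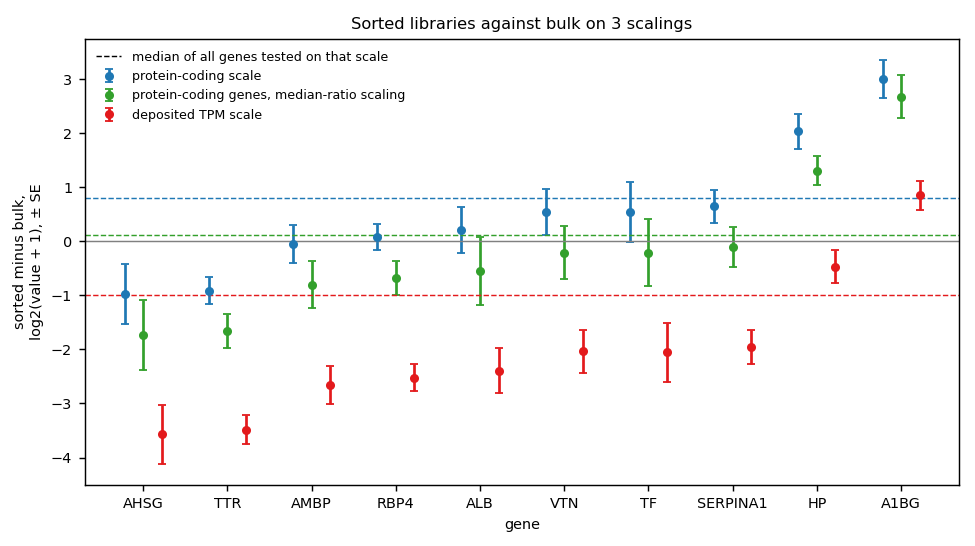
Sorted minus bulk difference in log2(value + 1) for each gene with its standard error, on the protein-coding scale (blue), after median-ratio scaling (green) and on the deposited TPM scale (red), with the median of all genes tested on each scale as a dashed line. HP and A1BG lie above the dashed line of their colour and the other 8 genes below it.

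Ratios of genes within a library do not depend on such scaling. The ratio of each gene to ALB was compared between the 12 sorted and 3 bulk libraries with a two-sided exact permutation test over the 455 splits, whose smallest p is 0.0022. This test was added after the levels had been seen and treats the sorted libraries as 1 group. It is not adjusted for the 9 ratios compared, of which 7 had a p under 0.05. Ratios to ALB of genes outside the 10 were not worked out, so no share over all genes stands beside this count. Whether other genes would pass, or show no overlap, as often was not tested. Relative to ALB, A1BG was 22.6-fold higher in the sorted libraries (log2 ratio -11.1 ± 0.522 sorted and -15.6 ± 0.358 bulk, SD; exact permutation test, p = 0.0022). HP was 3.67-fold higher (-8.03 ± 1.05 sorted and -9.90 ± 0.0631 bulk; exact permutation test, p = 0.00659).

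AHSG and TTR were lower relative to ALB in every sorted library than in any bulk library. The fold was 0.441 for AHSG (log2 ratio -2.07 ± 0.298 sorted and -0.89 ± 0.0491 bulk, SD) and 0.459 for TTR (-6.12 ± 0.356 sorted and -4.99 ± 0.0512 bulk), each with a p of 0.0022 by the exact permutation test. VTN was 1.26-fold higher (p = 0.0022, exact permutation test), again with no overlap. SERPINA1 was 1.36-fold higher (p = 0.0132), also with no overlap, and AMBP at 0.836-fold (p = 0.0242), by the same exact permutation test. SERPINA1 no longer passed without bulk replicate 1 (p = 0.0549), nor did AMBP without bulk replicate 1 (p = 0.0659) or 3 (p = 0.0989), by the same exact test. TF at 1.26-fold and RBP4 at 0.910-fold did not pass, with p of 0.0659 and 0.516 by the exact permutation test.

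**Figure D4:**
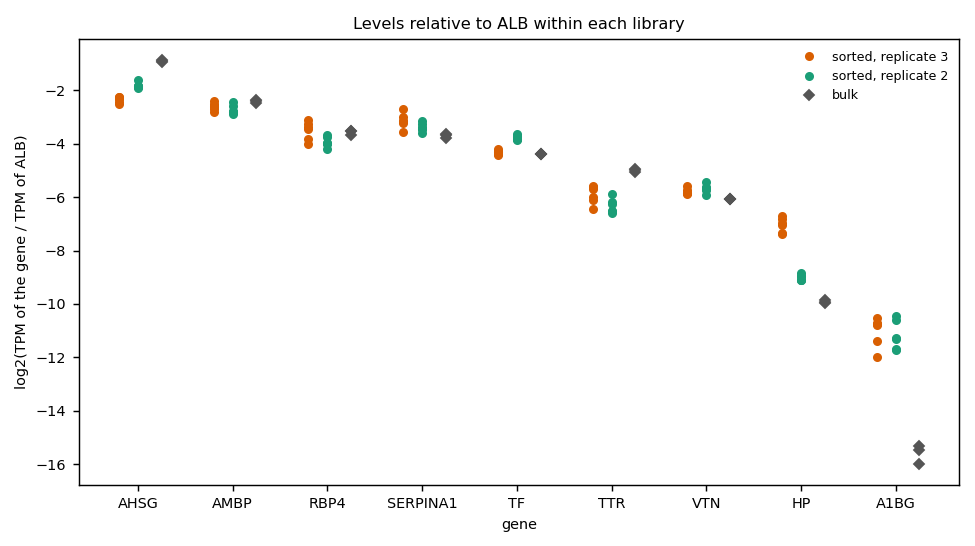
Log2 ratio of each gene's TPM to that of ALB in the same library, for the sorted libraries of replicate 3 (orange) and replicate 2 (green) and for bulk (grey diamonds). AHSG and TTR lie below their bulk diamonds in all sorted libraries, SERPINA1, VTN, HP and A1BG above them, and HP is higher in replicate 3 than in replicate 2.

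The replicate numbers differed in some of these ratios too. HP relative to ALB was higher in replicate 3 than in replicate 2 by 1.97 log2 units, in 6 of 6 fractions, and even the lowest sorted library, at -9.11, was above the highest bulk library, at -9.84. TF and AHSG relative to ALB were lower in replicate 3, with log2 differences of -0.56 and -0.53, each in 6 of 6 fractions.

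In the list of 37 other plasma proteins 36 were tested in sorted against bulk, in protein-coding TPM. Limma called 16 of the 36 higher in the sorted libraries, against 55.1% of all genes, and 7 lower, against 16.5%. The median was 0.83 beside 0.79 over all genes, so neither the counts nor the median set the list apart. The largest differences were 3.31 for HPX (hemopexin, the haem carrier), 3.28 for SAA4, 2.95 for ITIH1 and -2.82 for PON1 (paraoxonase 1 of high-density lipoprotein). SAA4 rested on only 1 to 2 reads per bulk library and 0 to 34 per sorted library, and PON1 on 0 to 12 reads per sorted library. HPX had 32.9, 59.2 and 104 protein-coding TPM as lowest, median and highest in the sorted libraries, against 4.47 to 5.23 in bulk, and PON1 had 0, 2.44 and 5.92, against 16.0 to 19.6 in bulk. For both genes sorted and bulk libraries did not overlap. Of the 4 with the highest bulk levels, A2M and APOH were called lower in the sorted libraries, with log2 differences of -0.82 and -0.66. AFP and ITIH2 had estimates of -0.47 and -0.35 and were not called (adjusted p 0.291 and 0.446 by limma).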

How the data were processed

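RNA of 12 sorted and 3 bulk HepG2 libraries was used, and groups and replicate numbers came from the labels. The deposited files hold log2 values, 1 per gene identifier, which are log2(TPM + 1), since back-transformed values sum to 1000000. Per the submitters' processing notes the tools were HISAT2, BWA, SAMtools, Trimmomatic and cutadapt, with build hg38; quantifier and annotation: not given in the sources used here. Symbols and positions came from RefSeq tables of GRCh38.p14.

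Low values step by the worth of 1 read, which gave reads and gene lengths for 50307 of 50310 genes; 99.672% of lengths were whole within 0.01 base. Units may be reads or read pairs.

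The main test was limma 3.58.1 (R 4.3.3) with an intensity trend on log2(TPM + 1), genes averaging at least 1 TPM, no replicate term and Benjamini-Hochberg adjustment over all genes at 0.05. The sorted libraries shared a fit; sorted against bulk used protein-coding genes rescaled to 1000000 and all 15 libraries. Differences on this scale understate changes of low genes. The code was tested on simulated data. Named beside the 10 genes were the 4 other plasma proteins highest in bulk, up to 4 with the largest called change per comparison, and the 5 genes most alike. Members, lists and tests were chosen with earlier results of these data known. Alternatives changed the pseudocount, filter, scaling, replicate term and libraries, and, added after the data were seen, used limma's voom on recovered reads and ratios to ALB.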

Additional observations from a re-analysis of the deposited data

How the results depend on the processing

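Adding the replicate number as a block, which is an alternative because no label ties the numbers to a culture or day, left 0 of the 10 genes called among the fractions in the deposited TPM. The check of this pairing gave a correlation of 0.308 to 0.379 (median 0.323) between the deviations of same-numbered libraries over 15 pairs of fractions. In fits added after the data were seen, the block with voom called 2 genes for any difference (TF and SERPINA1), against 525 of all 17022. For the slope over S1 to S4 it called 6 (ALB, TF, SERPINA1, AHSG, AMBP and VTN, all lower in later fractions), against 865 of all 17022, 193 of them lower. The block with the protein-coding scale called 2 for the slope (TF and SERPINA1), against 249 of all 13492, 81 of them lower. In sorted against bulk the block called 5 of the 10 genes, against 9337 of all 13041. Replicate 1 exists only in bulk, so with this block bulk replicate 1 does not enter the estimates. Their median over the 10 was 0.370, the same as without bulk replicate 1. The block also pairs sorted and bulk libraries of the same number, which no label ties together. The block with median-ratio scaling called 6, against 9012 of all 12891, and the deposited scale 9, against 13896 of all 17174. The main fit called 3, against 9337 of all 13041. The median of the 10 there was -2.22 on the deposited scale, -0.38 after median-ratio scaling and -0.39 with the block as well. Between the replicate numbers the median was -1.06 after median-ratio scaling.

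Estimates that changed sign were these, none of them called on the main scale unless said. In S against G1, ALB and TTR were at 0.0561 and 0.0760 on the protein-coding scale (the same with the block), 0.0756 and 0.0941 after median-ratio scaling (the same with the block), 0.0247 and 0.0401 with voom, and 0.0216 and 0.0463 with voom and the block. The slope of A1BG was -0.0033 after median-ratio scaling, with or without the block. In sorted against bulk on the deposited scale, ALB was at -2.39, TF at -2.05, SERPINA1 at -1.95, RBP4 at -2.52, VTN at -2.04 and HP, which was called higher on the protein-coding scale, at -0.47. After median-ratio scaling ALB was at -0.55, TF at -0.21, SERPINA1 at -0.11, RBP4 at -0.68 and VTN at -0.21, and with the block as well at -0.55, -0.22, -0.16, -0.67 and -0.22 in the same order. With voom ALB and RBP4 were at -0.0687 and -0.21, and with voom and the block at -0.0724 and -0.18. These scalings differ by construction in what is held constant between sorted and bulk libraries.

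Leaving out 1 library at a time changed signs in comparisons without calls. In G2 against G1 the ranges were -1.19 to 0.46 for AHSG, -0.84 to 0.35 for ALB, -0.73 to 0.25 for AMBP, -0.95 to 0.0155 for HP, -0.63 to 0.13 for RBP4, -0.47 to 0.65 for SERPINA1, -1.13 to 0.55 for TF, -0.59 to 0.30 for TTR and -1.05 to 0.24 for VTN. In S against G1 they were -1.16 to 0.48 for AHSG, -0.64 to 0.36 for ALB, -0.74 to 0.24 for AMBP, -0.83 to 0.13 for HP, -0.42 to 0.70 for SERPINA1, -1.08 to 0.60 for TF, -0.56 to 0.33 for TTR and -0.71 to 0.21 for VTN. For the slope they were -0.0496 to 0.0912 for A1BG, -0.40 to 0.0268 for AHSG, -0.31 to 0.0822 for HP and -0.14 to 0.0766 for RBP4, and in sorted against bulk -0.17 to 0.0660 for AMBP.

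The fits among the fractions rest on 2 libraries each, with the shift between replicate numbers inside their spread. The 5 to 8 bulk reads of A1BG limit its bulk level most.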
